A study of Mus musculus with 9 samples.

Results

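Peaks of PBRM1 and BRG1 were examined at the 5 genes *Hpgd*, *Ptgr1*, *Cbr1*, *Slco2a1* and *Abcc4*, which take part in prostaglandin transport and breakdown, out of 21938 protein-coding genes of GENCODE M21 (mouse, mm10). The 5 were a named list, and each was given a window of its gene body plus 20 kb on each side. The data were ChIC-Seq (chromatin immunocleavage sequencing) peak lists from primary oviductal muscle cells of WT mice aged 8 to 12 weeks at D2 (the second day) of pregnancy. In this assay micrococcal nuclease, fused to protein A, is bound by the antibody, and DNA that it cuts free near the antigen in fixed cells is sequenced. There were 3 libraries with an antibody to PBRM1 (labeled Baf180), which belongs to the PBAF type of SWI/SNF chromatin remodeler, and 3 with an antibody to BRG1, an ATPase shared by several SWI/SNF assemblies, each from 50000 cells, and IgG samples were not analysed here. All the animals had been mated, and all the cells came from digested oviduct that was filtered, plated and washed, so no unmated or knockout group was compared. Nothing in the labels ties a replicate to an animal, and p-values therefore measure only the spread between libraries.

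Prostaglandins are lipid signals that act on smooth muscle contraction, and in the oviduct they are known for their part in the movement of gametes and embryos. Their action at a cell ends by uptake and oxidation. The transporter encoded by *Slco2a1* carries prostaglandins into the cell, 15-hydroxyprostaglandin dehydrogenase, encoded by *Hpgd*, oxidizes them to 15-keto forms, and the reductase encoded by *Ptgr1* acts on these products. *Cbr1* encodes a carbonyl reductase that can turn PGE2 into PGF2α, and *Abcc4* encodes an efflux pump that exports prostaglandins.

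The PBRM1 libraries held 18126049 to 23992352 fragments and 31948 to 38119 peaks, and the BRG1 libraries held 14284532 to 15897724 fragments and 35194 to 39438 peaks. Values below are normalized pileup, the deposited pileup at the summit (the number of fragments that cover it) per 1000000 fragments of the library. A library without a listed peak has no value, which sets no level, since only peaks past the q cutoff of 0.05 were listed. As pooled cells were assayed, a site occupied in fewer cells and a site occupied less in each cell cannot be told apart. In normalized pileup BRG1 exceeded PBRM1 at most promoters: the median log2 difference (BRG1 minus PBRM1) over the 9092 protein-coding genes with a promoter peak in all 6 libraries was 0.59, and that over 4450 distal regions was 0.27. The differences of the 5 genes are therefore also given after each library was centered on its median. Of 8 smooth muscle markers, 4 (*Acta2*, *Tagln*, *Mylk* and *Smtn*) had a promoter peak in all 6 libraries, whereas *Cnn1* had none and *Myh11* had a peak in 1 BRG1 library. None of 6 epithelial, 3 fibroblast, 2 endothelial and 1 leukocyte markers had a promoter peak in all 6. The fibroblast marker *Dcn* had one in all 3 BRG1 libraries. Markers listed in no library were 4 of the epithelial, 0 of the fibroblast, 1 of the endothelial and 1 of the leukocyte genes. Over the genome, support from all 6 was seen for 41.4% of protein-coding genes and support from none for 34.9%. The lists are short beside these shares, and cell identity was not tested with them.

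Promoter peaks, with a summit within 2 kb of an annotated start, were present in all 6 libraries for 4 of the 5 genes, namely *Hpgd*, *Ptgr1*, *Cbr1* and *Abcc4*. In 1 library the peak of *Abcc4* lay at an internal noncoding start, and with protein-coding starts only the number was 3 of 5 (40.1% of all protein-coding genes). The share among all protein-coding genes with any start was 41.4%, and 34.9% had a promoter peak in no library. *Slco2a1* had a promoter peak in 1 PBRM1 and 2 BRG1 libraries. At −log10 q of at least 5, only *Hpgd* and *Cbr1* of the 5 kept a promoter peak in all 6 libraries, beside 27.0% of all protein-coding genes. For *Cbr1* this rested on a peak at a start of the neighboring gene *Setd4* in PBRM1 replicates 2 and 3. The peak at the *Cbr1* start itself had −log10 q of 4.58 and 3.48 in these libraries. The 4 genes could be tested between antibodies, and all 4 passed the limma test with BRG1 higher in normalized pileup, as did 75.2% of the promoters tested. PBRM1 was higher at 0.088%. The values of the 3 BRG1 libraries all lay above those of the 3 PBRM1 libraries at each of the 4 genes, as they did at 73.4% of promoters tested, and exact permutation of the 6 libraries gave p = 0.1 for each, the smallest p that 3 against 3 allows. After centering, none of the 4 genes passed in either direction (limma), beside 0.275% of promoters with BRG1 higher and 0.44% with PBRM1 higher. Of the 4, *Cbr1* alone then had an unadjusted p under 0.05.

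**Figure D1:**
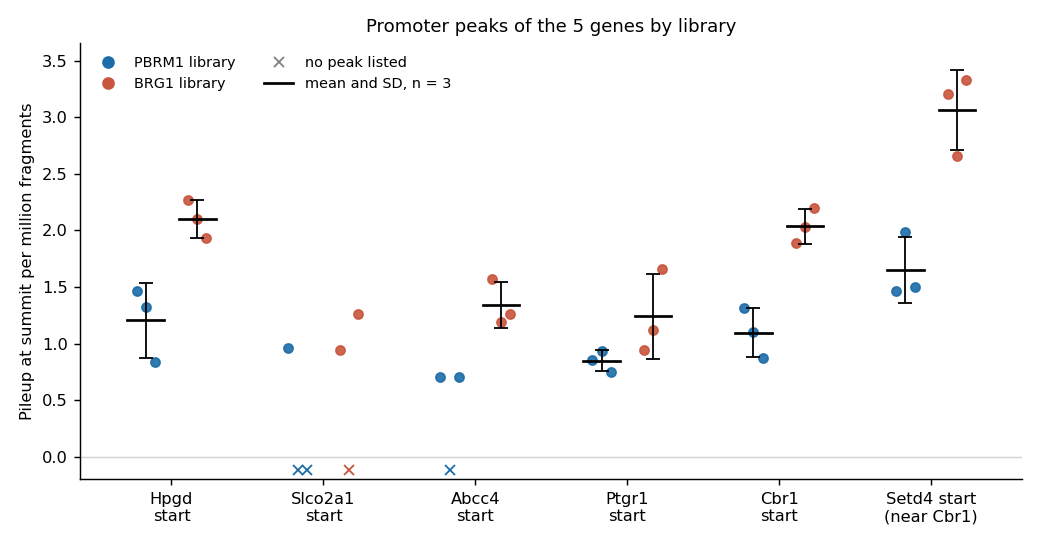
Pileup at the summit per 1000000 fragments (y axis) of the peak at the start of each gene, and of the peak at the start of *Setd4* near *Cbr1*, in each PBRM1 and BRG1 library (points); bars give the mean and SD of 3 libraries and crosses mark libraries with no listed peak. The BRG1 points lie above the PBRM1 points at *Hpgd*, *Abcc4*, *Ptgr1*, *Cbr1* and *Setd4*, while *Slco2a1* has points in only 3 libraries.

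*Hpgd*, the gene of the first enzyme of breakdown (ENSMUSG00000031613.9, chr8:56294585-56321043, + strand), had its promoter peak in an exon, with summits 28 to 116 bp after the GENCODE start in the 6 libraries. The RefSeq promoter (GRCm38.p6), which spans the upstream part of this peak, is shown because it holds a TATA box. Here and below, bases are printed 5′ to 3′ on the strand of the gene, and capitals mark matches, on either strand and with overlaps allowed, to the GC box (GGGCGG), the CCAAT box, the TATA box (TATAAA), the AP-1 site (TGANTCA), the cyclic AMP response element (TGACGTCA), the TEAD site (GGAATG) and the CArG box. The promoter at chr8:56294302-56294601, + strand, reads:
Hpgd promoter: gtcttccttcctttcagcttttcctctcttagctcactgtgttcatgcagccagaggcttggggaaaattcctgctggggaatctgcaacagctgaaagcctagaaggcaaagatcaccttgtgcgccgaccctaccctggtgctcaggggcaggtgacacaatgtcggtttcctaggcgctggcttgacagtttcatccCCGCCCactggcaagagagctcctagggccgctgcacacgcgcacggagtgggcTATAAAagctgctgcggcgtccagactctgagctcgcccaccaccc
It holds 1 GC box, a motif found in 35.6% of 32817 RefSeq promoters of this length, and 1 TATA box, found in 13.6%. The TATA box lies 29 to 24 bases before the GENCODE start, which is 33 bases downstream of the RefSeq start. A match of letters is a description and not a bound site.

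Normalized pileup at the *Hpgd* promoter was 1.47, 1.32 and 0.834 in the PBRM1 libraries (replicates 1 to 3) and 2.26, 2.10 and 1.93 in the BRG1 libraries. The groups did not overlap, and PBRM1 replicate 3 was the lowest of the 6. The means were 1.21 ± 0.33 for PBRM1 and 2.10 ± 0.17 for BRG1 (SD, n = 3 each). On the log2 scale the difference was 0.83 ± 0.20 (SE, limma adjusted p = 0.000717), and 15.4% of tested promoters differed by more. After centering, it was 0.22 ± 0.18 (limma adjusted p = 0.611). *Hpgd* was the 1 gene of the 4 that also passed on deposited fold enrichment over local background, which was 5.22 to 8.20 in the PBRM1 and 8.81 to 9.63 in the BRG1 libraries (log2 difference 0.46 ± 0.16, limma adjusted p = 0.0439); 16.3% of promoters passed on this scale with BRG1 higher.

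Upstream of *Hpgd*, distal regions (no summit within 2 kb of any annotated start) with a peak in all 6 libraries lay at −16.1 kb and −9.3 kb, both intergenic, with *Hpgd* the gene of the nearest start. Of the 57376 distal regions of the genome, 7.76% had a peak in all 6. The differences between the antibodies had opposite signs in these 2 regions, and 201 bases around the pooled summits of each are shown for that reason. In the −16.1 kb region the pooled PBRM1 and BRG1 summits fell on the same base, chr8:56278533, and in the −9.3 kb region they were 78 bp apart. The stretches, both + strand, are chr8:56278433-56278633 and chr8:56285135-56285335:
Hpgd −16.1 kb: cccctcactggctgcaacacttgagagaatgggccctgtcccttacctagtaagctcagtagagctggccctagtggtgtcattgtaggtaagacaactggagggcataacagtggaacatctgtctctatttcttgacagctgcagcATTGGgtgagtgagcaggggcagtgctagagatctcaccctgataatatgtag
Hpgd −9.3 kb: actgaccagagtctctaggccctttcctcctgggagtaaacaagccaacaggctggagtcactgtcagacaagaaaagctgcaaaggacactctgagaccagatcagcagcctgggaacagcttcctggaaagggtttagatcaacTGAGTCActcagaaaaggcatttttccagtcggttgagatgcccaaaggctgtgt
The first holds 1 CCAAT match, read on the opposite strand, and no CG. CCAAT was present around 23.2% of pooled PBRM1 and 21.9% of pooled BRG1 distal summits at this length. The second holds 1 AP-1 match, present around 15.5% and 11.7% of these summits, and 1 CG.

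At −16.1 kb, normalized pileup was 0.960, 0.993 and 0.750 in the PBRM1 libraries and 1.95, 1.19 and 1.66 in the BRG1 libraries. Every BRG1 value lay above every PBRM1 value, which was so at 30.9% of the distal regions tested. The log2 difference was 0.81 ± 0.21 (SE, limma adjusted p = 0.0057), and this was the only one of the 5 distal regions tested in the windows that passed, beside 14.4% of all tested with BRG1 higher. It also passed on fold enrichment, which was 4.74 to 6.09 in the PBRM1 and 7.23 to 11.6 in the BRG1 libraries (log2 difference 0.80 ± 0.19, limma adjusted p = 0.0127), beside 3.96% of all tested with BRG1 higher and 0.112% with PBRM1 higher. After centering it was 0.56 ± 0.21 and did not pass (limma adjusted p = 0.125), where 2.02% of all tested did with BRG1 higher, nor did the difference in normalized pileup without PBRM1 replicate 3 (0.68, limma adjusted p = 0.0501) or without BRG1 replicate 1 (0.65, limma adjusted p = 0.0742).

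At −9.3 kb the order was the opposite. Normalized pileup was 0.758, 0.828 and 0.834 in the PBRM1 libraries and 0.566, 0.70 and 0.732 in the BRG1 libraries. All PBRM1 values lay above all BRG1 values, which was so at 1.91% of the distal regions tested, but the difference of −0.28 ± 0.23 did not pass (limma adjusted p = 0.395). After centering it was −0.54 ± 0.22 (limma adjusted p = 0.186), and on fold enrichment it turned to 0.07 ± 0.18 (limma adjusted p = 0.848). The 2 other distal regions of the window had less support. That at −10.3 kb was listed in BRG1 replicate 2 only, and that at +46.4 kb in PBRM1 replicate 1 and BRG1 replicates 1 and 3. The PBRM1 summit of the latter lay 3 bp past the end of the window.

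*Ptgr1*, which encodes the reductase of the keto products (ENSMUSG00000028378.6, chr4:58965439-58987119, − strand), had its promoter peak inside the gene, with summits 122 to 470 bp after the start. In the pooled lists the summits fell in an intron, 275 bp (PBRM1) and 364 bp (BRG1) after the start, and 201 bases between and around them are shown because the summits lie beyond the RefSeq promoter stretch. The stretch is chr4:58986699-58986899, − strand:
Ptgr1 +0.3 kb: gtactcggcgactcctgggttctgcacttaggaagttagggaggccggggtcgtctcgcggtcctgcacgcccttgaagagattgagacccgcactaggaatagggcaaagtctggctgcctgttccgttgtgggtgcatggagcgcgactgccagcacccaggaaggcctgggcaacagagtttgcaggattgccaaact
It holds 11 CG and no match to the motifs searched. The median CG count at this length was 8 around pooled PBRM1 and 9 around pooled BRG1 promoter summits. Stretches about as long as the RefSeq promoters shown, centered on the pooled summits, held 1 CCAAT match for PBRM1 and 1 AP-1 match for BRG1. At that length CCAAT was present around 32.1% of pooled PBRM1 promoter summits, and AP-1 around 9.77% of pooled BRG1 promoter summits.

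Normalized pileup at the *Ptgr1* promoter was 0.859, 0.938 and 0.750 in the PBRM1 libraries and 0.944, 1.12 and 1.66 in the BRG1 libraries. The groups were barely separated, between PBRM1 replicate 2 and BRG1 replicate 1, and BRG1 replicate 3 stood highest. The means were 0.849 ± 0.094 and 1.24 ± 0.37 (SD, n = 3 each), and the log2 difference of 0.51 ± 0.22 (SE) had a limma adjusted p of 0.0369. This was below the median of all tested promoters, and 63.2% differed by more. After centering it turned to −0.10 ± 0.21 (limma adjusted p = 0.882), and on fold enrichment it was 0.09 ± 0.17 (limma adjusted p = 0.748). Without BRG1 replicate 3 it was 0.28 (limma adjusted p = 0.305), and it also missed the threshold without PBRM1 replicate 1 (0.52, limma adjusted p = 0.0645) or PBRM1 replicate 3 (0.43, limma adjusted p = 0.115). A second peak at +1.6 kb was listed in BRG1 replicate 1 only. Farther off, a peak at −12.8 kb, in an intron of *Dnajc25*, was listed in PBRM1 replicate 3 only, and a region 146 bp from a *Dnajc25* start in PBRM1 replicate 2 and BRG1 replicate 1.

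*Cbr1*, the carbonyl reductase gene (ENSMUSG00000051483.9, chr16:93605853-93610505, + strand), had peaks at 2 places near its starts, both in all 6 libraries. The nearer covered its protein-coding start, with summits from 31 bp before to 61 bp after it. The RefSeq promoter at chr16:93607587-93607886, + strand, is shown because the pooled summits, 29 (PBRM1) and 31 bp (BRG1) before the start, fall within it:
Cbr1 promoter: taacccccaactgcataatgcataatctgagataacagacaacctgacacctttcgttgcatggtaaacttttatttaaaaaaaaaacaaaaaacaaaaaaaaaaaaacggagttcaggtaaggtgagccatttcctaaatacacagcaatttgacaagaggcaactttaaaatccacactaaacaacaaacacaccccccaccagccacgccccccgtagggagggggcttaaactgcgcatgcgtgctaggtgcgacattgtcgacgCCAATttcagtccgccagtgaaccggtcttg
It holds 1 CCAAT match, 19 to 23 bases after the start, a motif present in 37.4% of RefSeq promoters, and 11 CG. The farther peak, 3.8 kb before that start, was counted because it lies within 2 kb of the start of a noncoding *Cbr1* transcript, except in PBRM1 replicate 1, where its summit was beyond 2 kb. Its mean summit lay in an exon 34 bp from a start of *Setd4*, a neighboring gene, and 1824 bp from the nearest *Cbr1* start.

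At the *Cbr1* start, normalized pileup was 1.31, 1.10 and 0.875 in the PBRM1 libraries and 1.89, 2.03 and 2.19 in the BRG1 libraries. The groups did not overlap, with means of 1.10 ± 0.22 and 2.04 ± 0.15 (SD, n = 3 each). At the *Setd4* start the PBRM1 libraries had 1.47, 1.99 and 1.50 and the BRG1 libraries had 3.21, 2.66 and 3.33, again without overlap. The *Setd4* peak was thus the taller in every library, and the ratio of the antibody means was 1.86 at both starts. With the highest promoter peak taken in each library, which was the *Setd4* peak in all but PBRM1 replicate 1, the log2 difference for *Cbr1* was 0.95 ± 0.18 (limma adjusted p = 7.07e-05), and 6.71% of promoters differed by more. With protein-coding starts only, an alternative chosen after seeing the data, the peak at the *Cbr1* start alone gave 0.91 ± 0.20 (limma adjusted p = 0.000242). After centering, the highest peak gave 0.34 ± 0.16 (limma adjusted p = 0.325). The rest of the window held a region at −15.8 kb, within 2 kb of the start of an antisense transcript and inside *Setd4*, listed in 5 of the 6 libraries, and a distal region at +17.9 kb listed in 3.

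*Slco2a1*, the uptake transporter gene (ENSMUSG00000032548.14, chr9:102988712-103096002, + strand), had a promoter peak in fewer libraries than the other genes and the largest number of distal regions. Its promoter peak was listed in PBRM1 replicate 1 at 0.960 and in BRG1 replicates 1 and 3 at 0.944 and 1.26. The peak was present in both pooled lists, at 0.808 (PBRM1) and 1.02 (BRG1). Summits lay 549 to 633 bp after the GENCODE protein-coding start, but 52 to 136 bp after the start of a nonsense-mediated decay transcript and 64 to 148 bp after the RefSeq start. The GENCODE protein-coding start is at −485 bases from the RefSeq one. The RefSeq promoter at chr9:103008237-103008536, + strand, is shown because its TATA box has the same spacing from the RefSeq start as that of *Hpgd* from its GENCODE start:
Slco2a1 promoter: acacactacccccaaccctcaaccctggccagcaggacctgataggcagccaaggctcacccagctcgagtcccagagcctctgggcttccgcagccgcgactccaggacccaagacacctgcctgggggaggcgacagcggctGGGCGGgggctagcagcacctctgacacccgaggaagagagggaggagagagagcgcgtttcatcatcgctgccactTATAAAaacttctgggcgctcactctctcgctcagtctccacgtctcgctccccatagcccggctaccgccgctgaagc
It holds 1 GC box and 1 TATA box, the latter 29 to 24 bases before the RefSeq start, and 18 CG against a median of 7 over all RefSeq promoters. Within either annotation the spacings differed. The *Hpgd* TATA box lay 4 to 9 bases after its RefSeq start, and that of *Slco2a1* 456 to 461 bases after its GENCODE start. All listed *Slco2a1* summits lay beyond the end of the stretch shown. The peaks of PBRM1 replicate 1 (from chr9:103008514) and BRG1 replicate 1 (from chr9:103008513) began after its GC box and TATA box. Only that of BRG1 replicate 3 (from chr9:103008318) covered these motifs among the single libraries.

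The *Slco2a1* window, 147.291 kb long, held 13 of the 34 merged regions found in the 5 windows, and 9 of these were distal. Per 100 kb of window there were 6.11 distal regions, beside 6.02 for *Hpgd*. Regions in all 6 libraries lay at −35.3 kb, intergenic and 16041 bp before the first annotated *Slco2a1* start, at −14.9 kb, in an intron and within 2 kb of the start of the small RNA gene *Gm25842*, and at +53.8 kb, in an intron. At −35.3 kb the pooled summits were 14 bp apart, and 201 bases around them (chr9:102972594-102972794, + strand) are shown as the tallest distal site of the 5 windows in the pooled lists:
Slco2a1 −35.3 kb: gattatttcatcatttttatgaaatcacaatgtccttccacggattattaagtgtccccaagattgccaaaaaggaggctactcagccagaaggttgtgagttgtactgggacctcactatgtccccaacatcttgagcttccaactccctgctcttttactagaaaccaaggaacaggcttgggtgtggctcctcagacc
These 201 bases hold no match to the motifs searched and 1 CG. Stretches about as long as the RefSeq promoters shown, centered on each pooled summit, held 1 TATA box and 1 AP-1 match for both antibodies. At that length a TATA box was present around 18.8% of pooled PBRM1 and 14.7% of pooled BRG1 distal summits. An AP-1 match was present around 25.1% and 20.1% of them.

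At −35.3 kb, normalized pileup was 1.11, 1.21 and 1.21 in the PBRM1 libraries and 1.76, 1.82 and 1.46 in the BRG1 libraries. The groups did not overlap, but the log2 difference of 0.51 ± 0.20 missed the threshold (limma adjusted p = 0.0668), and so it did after centering (0.26 ± 0.19, limma adjusted p = 0.556). At +53.8 kb the PBRM1 libraries had 1.11, 1.10 and 0.959 and the BRG1 libraries had 1.32, 0.910 and 1.26, so that the groups overlapped. The difference there was 0.12 ± 0.22 (limma adjusted p = 0.721; 95% CI −0.31 to 0.55), and it was below 0 after centering (−0.13) and on fold enrichment (−0.09). At −14.9 kb, which as a promoter of another gene was not in the distal test, the PBRM1 libraries had 1.21, 0.883 and 0.875 and the BRG1 libraries had 1.20, 1.47 and 1.46 (exact permutation test, p = 0.2).

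The intronic region at −3.4 kb of *Slco2a1* was the only one of the 34 with a peak in all 3 libraries of 1 antibody and in none of the other. It had 0.808, 0.993 and 0.750 in the PBRM1 libraries, and no BRG1 library listed it. The pooled BRG1 list held a peak there at 0.619, against 0.791 in the pooled PBRM1 list, with the summits 196 bp apart. Fragments of the BRG1 libraries thus covered the site, at a pooled fold enrichment of 2.57 against 3.86 for PBRM1. Whether they exceeded cutting without a specific antibody was not tested. Of all distal regions, 1.5% had this pattern and 0.735% had the opposite. The remaining *Slco2a1* regions were listed in 1 to 4 libraries, among them a pair at +70.2 and +70.6 kb, where the BRG1 libraries listed 5 peaks and the PBRM1 libraries 1. The pooled BRG1 list held 1 peak across both at 1.17, and the pooled PBRM1 list held a peak at each, at 0.630 and 0.598.

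**Figure D2:**
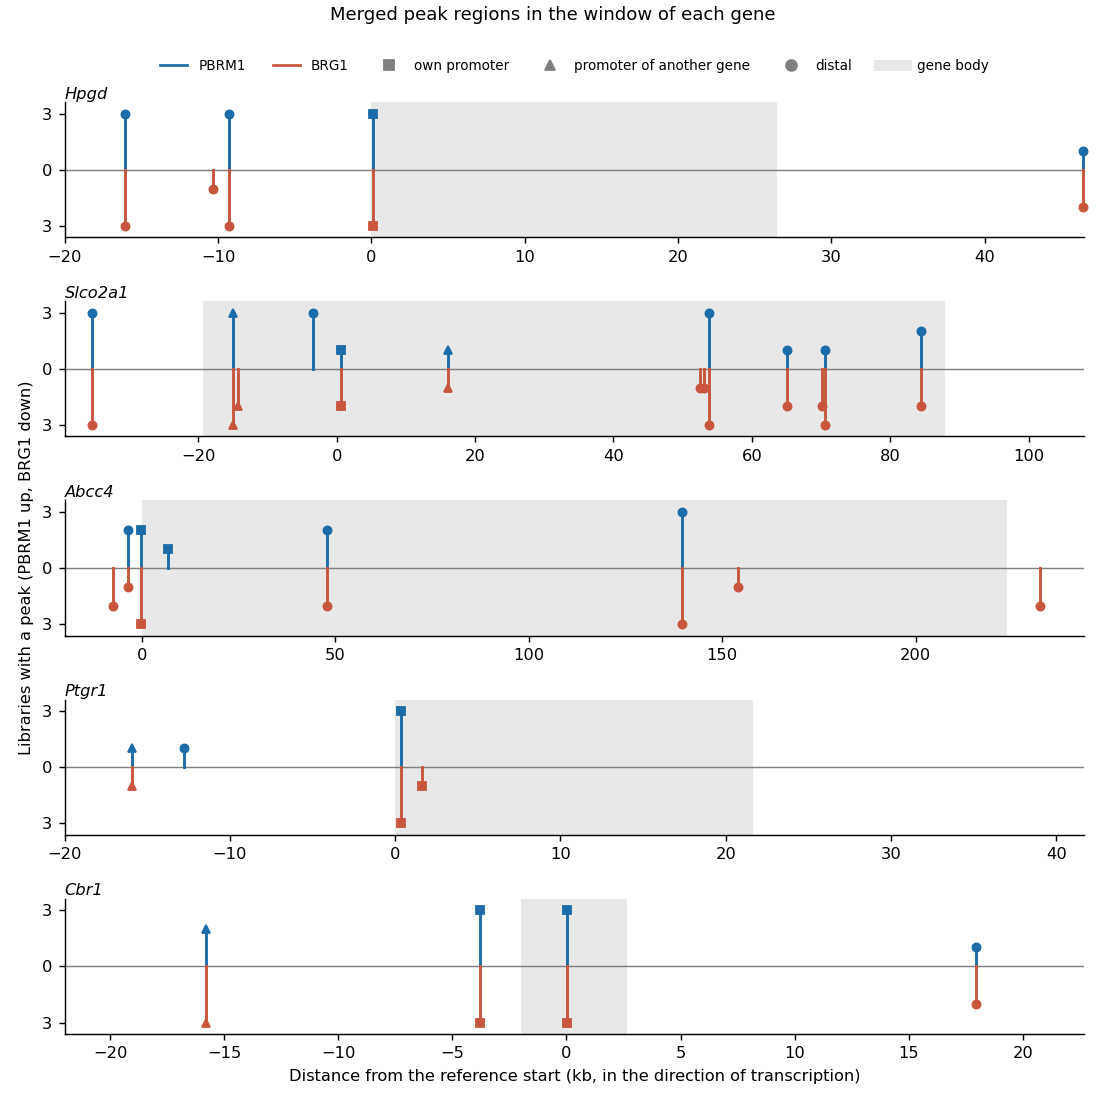
Merged peak regions in the window of each gene (x axis, distance in kb from the reference start in the direction of transcription, with its own scale in each panel; y axis, number of libraries with a peak, PBRM1 upward and BRG1 downward). Gray marks the gene body over all annotated transcripts and the marker shape gives the class of the region. The *Slco2a1* panel holds the most regions, but per 100 kb it has 8.83, beside 8.96 for *Cbr1*. The peaks of *Hpgd* lie at and before its start except for 1 at +46.4 kb.

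*Abcc4*, the efflux pump gene (ENSMUSG00000032849.14, chr14:118482692-118706219, − strand), had a low promoter peak, with the listed PBRM1 summits farther upstream than those of BRG1. BRG1 summits lay at −168, −281 and −59 bp from the start, and PBRM1 summits at −582 and −501 bp in replicates 1 and 3. These PBRM1 peaks had −log10 q of only 1.81 and 2.62 and overlapped the BRG1 peaks. Whether summits lie as far apart at other promoters was not tested. In PBRM1 replicate 2 no peak was listed at this start, and the promoter value came from a peak 3 bp from an internal noncoding start, 6730 bp into the gene. In the pooled lists the PBRM1 summit was at −464 bp and the BRG1 summit at −167 bp. The RefSeq promoter at chr14:118706170-118706469, − strand, is shown because it holds the pooled BRG1 summit and not the PBRM1 one:
Abcc4 promoter: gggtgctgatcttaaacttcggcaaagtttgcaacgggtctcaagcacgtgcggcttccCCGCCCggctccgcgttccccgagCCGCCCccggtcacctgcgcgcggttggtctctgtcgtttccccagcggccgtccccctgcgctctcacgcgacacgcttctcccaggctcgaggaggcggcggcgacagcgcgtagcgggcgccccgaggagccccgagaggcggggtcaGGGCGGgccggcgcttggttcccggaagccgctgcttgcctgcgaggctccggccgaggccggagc
It holds 3 GC boxes and 41 CG, against a median of 7 CG over all RefSeq promoters (quartiles 3 and 20). A GC box from −167 to −162 bases begins at the base of the pooled BRG1 summit. In stretches about as long as this promoter, centered on the pooled summits, there were 40 CG and 4 GC boxes for BRG1, and 10 CG and no GC box for PBRM1.

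Normalized pileup at the *Abcc4* promoter was 0.707, 0.552 and 0.709 in the PBRM1 libraries and 1.57, 1.19 and 1.26 in the BRG1 libraries. The groups did not overlap, with means of 0.656 ± 0.090 and 1.34 ± 0.20 (SD, n = 3 each). The log2 difference of 1.03 ± 0.22 passed (limma adjusted p = 0.000216), and 3.41% of promoters differed by more. Without PBRM1 replicate 2, whose value is from the internal start, it was 0.91, and 12.7% of promoters differed by more. Without that library the difference was 1.12 for *Cbr1* and 0.92 for *Hpgd*. With all 6 libraries, the *Abcc4* difference did not pass after centering (0.42 ± 0.21, limma adjusted p = 0.36) or on fold enrichment (0.36 ± 0.16, limma adjusted p = 0.114). The sum of its means was also low, with 92.7% of tested promoters higher.

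The *Abcc4* gene is the longest of the 5, with 8 regions in a window of 263.528 kb, or 3.04 per 100 kb. The median over windows of all protein-coding genes was 4.80 (quartiles 1.79 and 8.07), and the windows of *Ptgr1* (6.48), *Hpgd* (7.52), *Slco2a1* (8.83) and *Cbr1* (8.96) lay above it. Its 1 region in all 6 libraries was intronic, at +139.5 kb. There the PBRM1 libraries had 0.758, 0.717 and 0.917 and the BRG1 libraries had 1.20, 1.26 and 0.998, without overlap, and the log2 difference of 0.53 ± 0.22 missed the threshold (limma adjusted p = 0.0901). Before the start, a region at −3.7 kb was listed in 2 PBRM1 and 1 BRG1 libraries and another at −7.5 kb in BRG1 replicates 1 and 3.

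**Figure D3:**
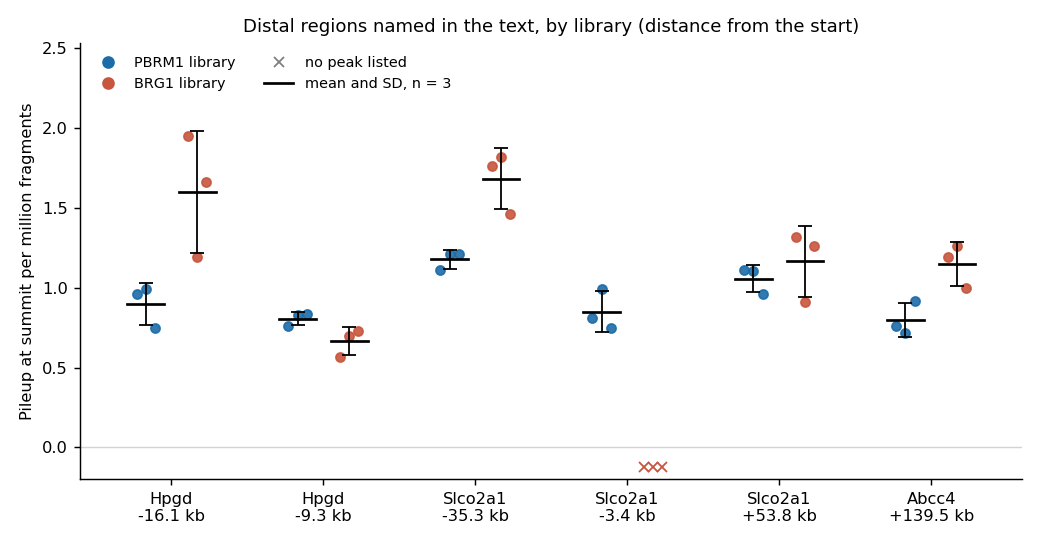
Pileup at the summit per 1000000 fragments (y axis) of the distal regions with a peak in all 6 libraries, and of the region at −3.4 kb of *Slco2a1* with peaks in the 3 PBRM1 libraries only (points, libraries; bars, mean and SD of 3; crosses, no listed peak). BRG1 points lie above PBRM1 points at *Hpgd* −16.1 kb, *Slco2a1* −35.3 kb and *Abcc4* +139.5 kb, and below them at *Hpgd* −9.3 kb.

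Among the genes, the order of the mean promoter pileup at the own start was *Hpgd* (1.21), *Cbr1* (1.10), *Ptgr1* (0.849) and *Abcc4* (0.656) for PBRM1. The *Abcc4* mean includes the internal peak of PBRM1 replicate 2. Neighbors in this order overlapped in their library values except *Ptgr1* and *Abcc4*. For BRG1 the order was *Hpgd* (2.10), *Cbr1* (2.04), *Abcc4* (1.34) and *Ptgr1* (1.24), and *Hpgd* overlapped with *Cbr1* and *Abcc4* with *Ptgr1*, while the first pair lay above the second in every library. Against all tested promoters, *Hpgd* was near the middle, with 48.7% having a higher sum of the antibody means, and *Ptgr1* was low, with 90.6% higher.

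Distal peaks were also counted in each library. Over the 5 windows there were 10, 7 and 11 in the PBRM1 and 15, 9 and 15 in the BRG1 libraries, a difference of 3.67 that was within the spread between libraries (exact permutation test, two-sided, p = 0.3). For *Hpgd* there were 2 in each PBRM1 and 3 in each BRG1 library (exact permutation test, p = 0.1), a count that rests on the PBRM1 peak 3 bp outside the window. For *Slco2a1* the counts were 4, 4 and 5 against 5, 5 and 7 (p = 0.3, exact permutation test) and for *Abcc4* 3, 1 and 3 against 6, 1 and 4 (p = 0.5, exact permutation test), with replicate 2 the lowest for both antibodies. The *Slco2a1* difference of 1.33 peaks was 0.667 without BRG1 replicate 3, and the *Abcc4* difference, also 1.33, was 0.667 without PBRM1 replicate 2, 0.167 without BRG1 replicate 1 and 2.67 without BRG1 replicate 2. *Ptgr1* and *Cbr1* had 0 or 1 distal peak in every library. Of the 21 distal regions in the windows, 5 had a peak in all 6 libraries and 5 in a single library. Over all distal regions these shares were 7.76% and 53.8%. With promoters included, 10 of the 34 regions had a peak in all 6 libraries (15.5% of 82959 regions of the genome), 7 in a single library (47.0%), and 1 in the PBRM1 libraries only (1.22%), while none was in all 3 BRG1 and no PBRM1 libraries (0.916%).

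**Figure D4:**
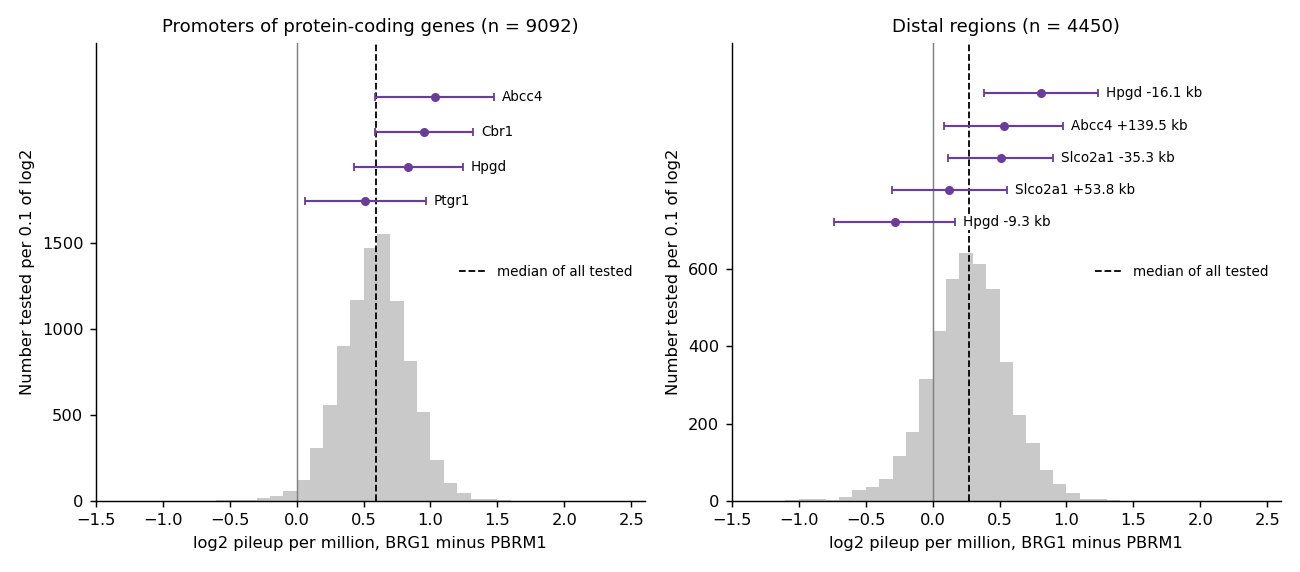
Log2 difference in normalized pileup, BRG1 minus PBRM1 (x axis), for all promoters and all distal regions with a peak in 6 libraries (gray, number per bin of 0.1 on the y axis; dashed line, median), with the tested genes and distal regions above (points; bars, 95% CI from limma; their height has no scale). *Abcc4*, *Cbr1* and *Hpgd* lie to the right of the promoter median of 0.59 and *Ptgr1* to its left, and *Hpgd* −9.3 kb lies left of 0.

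Other genes of prostaglandin transport and breakdown were read in the same way. Of 8, 4 had promoter peaks in every library (*Slco4a1*, *Akr1b3*, *Ptgr2* and *Cbr3*), 2 had none (*Cbr2* and *Akr1c18*), and *Slco3a1* and *Abcc1* had them in 5 and 3, beside 41.4% of all genes with peaks in all 6 and 34.9% with none. With BRG1 higher, 3 of the 4 passed in normalized pileup and none with PBRM1 higher (limma), beside 75.2% and 0.088% of all promoters tested, with a median log2 difference of 0.60 beside 0.59 over all promoters tested. After centering none passed and the median was −0.02. *Slco4a1*, an organic anion transporter, differed most, with 0.707, 0.828 and 0.625 in the PBRM1 and 1.76, 1.61 and 2.06 in the BRG1 libraries (1.33 ± 0.21, limma adjusted p = 9.52e-06). After centering it was 0.72 ± 0.19 (limma adjusted p = 0.0581), and it passed on fold enrichment (0.54 ± 0.16, limma adjusted p = 0.0233). *Ptgr2*, a second reductase of keto prostaglandins, missed the threshold at 0.39 ± 0.18 (limma adjusted p = 0.0513). Of 19 synthesis and receptor genes, 8 had promoter peaks throughout and 4 in no library, against the same 41.4% and 34.9% of all genes. Of the 8, 5 passed with BRG1 higher, against 75.2% of all promoters tested, and none with PBRM1 higher (median log2 difference 0.52, or −0.10 after centering).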

How the data were processed

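ChIC-Seq peaks were read from lists deposited by the authors for 3 PBRM1 and 3 BRG1 libraries and for each antibody pooled. Per the file headers, MACS 2.2.7.1 called narrow peaks from paired-end fragments with all duplicates kept at this step, q 0.05, no control and local background over 10 kb, and cutting without a specific antibody was not tested. The labels name cutadapt, Bowtie2 and GRCm38.p5, and other settings are not given in the sources used here. Deposited pileup is a signal (coverage at the summit), fold enrichment a ratio to local background and the q-value is given as −log10 q. Deposited positions and peak length are in bp.

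Pileup was divided by the fragments in the header and multiplied by 1000000. Peaks sharing at least 1 bp were merged into regions. A promoter value was the highest peak with a summit within 2 kb of any GENCODE M21 start of the gene. The reference start, from which distances are given, was the most upstream protein-coding start. Differences were fitted on log2 values with limma 3.58.1 (R 4.3.3, empirical Bayes with trend, Benjamini-Hochberg over all features tested, threshold 0.05), a method tested on simulated data, and single values by exact permutation of the 6 libraries. Sequence came from GRCm38.p6 through samtools 1.23.1 and pysam 0.24.0 and from the RefSeq promoter table, in which all 5 genes matched. Python 3.11.15, numpy 2.4.6 and pandas 2.3.3 were used. The genes, lists and tests were chosen with earlier results of these data known. Named were the 5 genes, genes whose start has a peak in their windows, preset pathway and marker lists, and distal regions in all 6 libraries or in 3 of 1 antibody and none of the other. Alternatives covered scaling, filters, distances, flanks, the block and single libraries left out.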

Additional observations from a re-analysis of the deposited data

How the results depend on the processing

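Fold enrichment and centering moved the most. On fold enrichment, 1480 promoters passed with BRG1 higher and 18 with PBRM1 higher, and 176 and 5 distal regions did. After centering, these were 25 and 40 promoters and 90 and 71 distal regions. The log2 differences that no longer passed (limma) were those on fold enrichment of *Abcc4* (0.36), *Ptgr1* (0.086) and *Cbr1* (0.44), and those after centering of *Hpgd* (0.22), *Abcc4* (0.42), *Cbr1* (0.34) and *Hpgd* −16.1 kb (0.56). The sign turned after centering for *Ptgr1* (−0.10) and *Slco2a1* +53.8 kb (−0.13), and on fold enrichment for *Slco2a1* +53.8 kb (−0.091) and *Hpgd* −9.3 kb (0.074), none of which passed. At −log10 q of at least 5, promoter peaks in all 6 libraries remained for 2 of the 5 genes, for *Cbr1* through the *Setd4* peak in PBRM1 replicates 2 and 3. PBRM1 was then higher at 5 of 5922 promoters tested (0.084%), beside 0.088% without this filter. With peaks asked of at least 2 libraries of each antibody, more features were tested. PBRM1 was then higher at 14 of 11104 promoters (0.126%) and 30 of 9714 distal regions (0.309%), beside 0.088% and 0.427% with peaks asked of all 6. With single libraries left out, 5489 to 6920 promoters and 306 to 563 distal regions had BRG1 higher, 12 to 39 distal regions had PBRM1 higher, and the difference was 0.28 to 0.69 for *Ptgr1* and 0.65 to 1.01 for *Hpgd* −16.1 kb. The count of distal regions with BRG1 higher moved most without PBRM1 replicate 3 (306), BRG1 replicate 3 (341) and BRG1 replicate 1 (418), and that with PBRM1 higher without PBRM1 replicate 1 (12) and BRG1 replicate 2 (39). With protein-coding starts only, an alternative chosen after seeing the data, 6688 promoters had BRG1 higher, and *Abcc4* was no longer tested. The cause of these changes was not tested.

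Deviations of same-numbered libraries from the mean of their antibody had correlations of −0.0144 to 0.0247. These showed no shared deviation by replicate number, but cannot tell whether same-numbered libraries came from the same cells or animals. With the replicate block, 6631 promoters and 647 distal regions had BRG1 higher and 7 and 21 had PBRM1 higher, no call of the 4 genes and 5 distal regions tested in the windows changed (other named genes were not refitted with the block), and the count of distal peaks had p = 0.25 in exact sign flips of the 3 pairs, the smallest possible. The difference in that count, 3.67, was 2.67 with flanks of 10 kb, 5.33 with 50 kb, 1.0 at −log10 q of at least 5 (exact permutation test, p = 0.9), and 2.5 to 5.67 with single libraries left out, the highest without BRG1 replicate 2. With each list cut to its 31948 strongest peaks, the difference was 2.67 (exact permutation test, p = 0.3). A single library listed 31948 to 39438 peaks, and the pooled lists held 94562 (PBRM1) and 96115 (BRG1). The part of depth in these numbers was not tested.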
